A study of Mus musculus with 6 samples.

Results

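The HOX genes form 4 clusters of homeobox transcription factor genes. The 38 HOX genes described here were taken by name from a fixed list, out of 50763 rows of a gene count table. They are 10 genes of the Hoxa cluster, 10 of Hoxb, 9 of Hoxc and 9 of Hoxd. They entered by name alone, but the list was made with earlier results of these data known. A further HOX gene of the table is not on the list and is not described.

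Messenger RNA was sequenced from mouse embryonic fibroblasts, the mixed adherent mesenchymal cells grown from a dissected embryo. The 3 K68R libraries came from SOD2 K68R knock-in embryos and the 3 WT libraries from wild type embryos, all at E13.5 (embryonic day) and all on a C57BL/6 background. In K68R the lysine at residue 68 of SOD2, the manganese superoxide dismutase of mitochondria, is replaced by arginine, a residue that cannot be acetylated. The labels name no treatment, and the labels do not say whether embryos carried 1 or 2 mutant alleles. The libraries are called biological replicates, but the labels do not tie them to separate embryos or cultures, and a p-value here reflects only how far these libraries differ, a spread that may be technical.

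HOX proteins give cells their address along the head to tail axis and along the limb. Genes at the 3′ end of a cluster (low paralog numbers) are switched on early and reach far towards the head, while genes at the 5′ end (high numbers) are switched on later, in the lumbar, sacral and tail region and in the distal limb. Genes with the same number in different clusters are paralogs and share much of their function. Fibroblasts in culture are known to keep the HOX code of the body site they were taken from, so the code reads out where in the embryo a population of fibroblasts arose. Silent HOX genes are covered by Polycomb complexes, active ones are kept open by Trithorax complexes, and retinoic acid, CDX factors and GDF11 help set which genes open.

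Library totals ran from 26200088 to 40691447 counted read pairs, so a count of 3 stood for 0.0728 to 0.116 CPM, a gene's counts scaled to library size. Sod2 itself stood at 47.2 ± 1.62 CPM (SD, n = 3) in K68R against 70.0 ± 1.58 CPM in WT, and since the mutation is a substitution, its RNA level does not check the labels. The genotypes differed across most of the transcriptome: edgeR's quasi-likelihood test called 13613 of 16730 tested genes (81.4%) at a Benjamini-Hochberg adjusted p under 0.05. Fold changes over all genes also varied with exonic length and GC content. The fold changes of HOX genes are therefore given with those of a second fit that removes this dependence from each library, called the length and GC fit below. Summed levels, shares and ratios of counts have no such version. The length and GC fit called 75.4% of 15673 genes and put 1618 genes in the opposite direction. Markers of other cell types moved too. Skeletal muscle markers summed to 256 to 257 CPM in K68R and 72.7 to 76.0 in WT, cartilage markers to 173 to 178 and 14.6 to 15.3, endothelial markers to 96.9 to 98.8 and 25.3 to 27.6, and epithelial markers to 18.5 to 20.6 and 46.1 to 47.6. The part of these cells in the HOX results was not tested. In bulk RNA, fewer cells of a type and less RNA per cell cannot be told apart.

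Of the 38 HOX genes, 36 had enough counts to be tested, and 29 of them differed between the genotypes. The edgeR test called 13 higher in K68R, where 40.8% of all tested genes were higher, and 16 lower, where 40.5% were lower, so the share of HOX genes called was near that of the transcriptome. The median log2 fold change, K68R over WT, was -0.04 for the HOX genes and -0.01 for all tested genes. The changes ran from -2.24 for Hoxb13 to 2.95 for Hoxa6, so genes of the family moved in both directions around a median near 0. All 3 K68R values lay above all 3 WT values for 14 of the genes and below them for 15, against 82.3% of all tested genes with no overlap in either direction. A change of at least 2-fold was called upwards for 5 genes (22.1% of all tested genes) and downwards for 4 (7.57%). The 5 were Hoxa3, Hoxa6, Hoxb3, Hoxb4 and Hoxb6, and the 4 were Hoxa9, Hoxb13, Hoxc11 and Hoxd8. When the edgeR test was set against a change of 1.5-fold, it called 16 HOX genes, 9 higher and 7 lower, and 41% of all genes.

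With the length and GC fit, 12 HOX genes were called higher (36.2% of all genes) and 14 lower (39.2%). Of the 29 genes called without it, 20 kept their direction and their call. Hoxb3 was called in the opposite direction, and the other 8 were no longer called. The 2 genes below the test's count filter were Hoxb1, with 1 count over all 6 libraries, and Hoxd1, with 3 counts in K68R and 13 in WT. They belong to paralog group 1, whose genes act in the hindbrain.

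**Figure D1:**
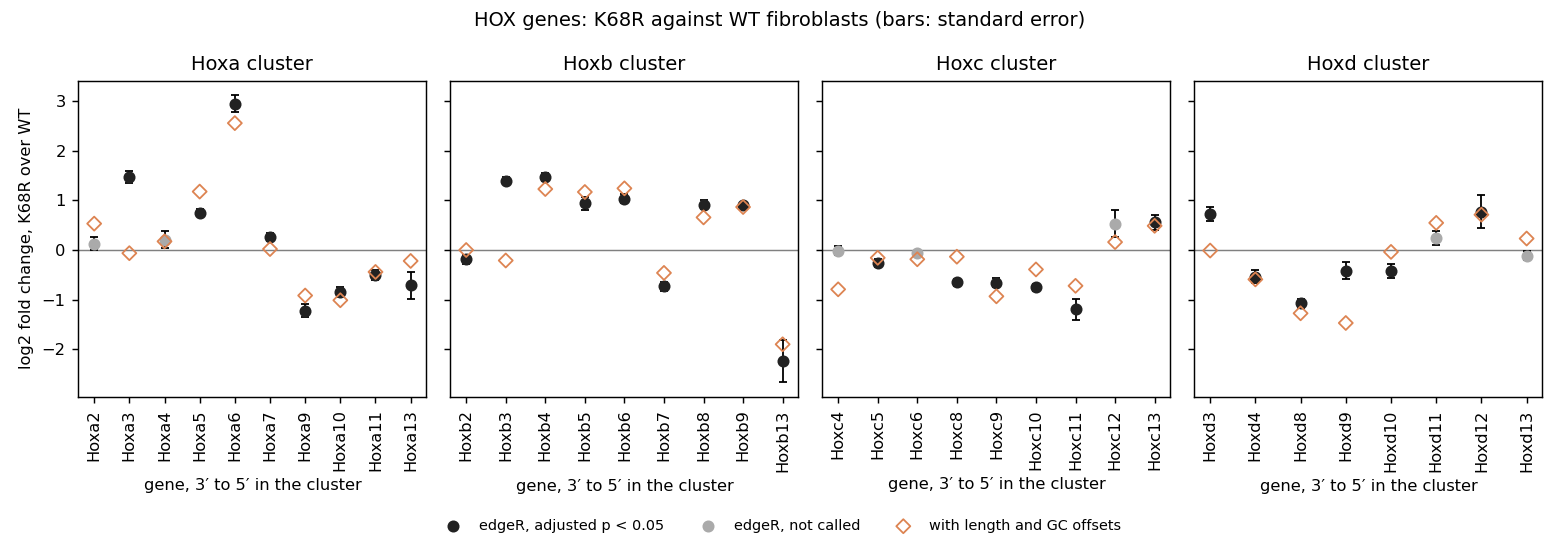
Log2 fold change (K68R over WT) of the 36 tested HOX genes, by cluster and in 3′ to 5′ order. Filled points are the edgeR fit with bars for its standard error, black where called and grey where not, and open diamonds are the length and GC fit. Hoxa6 stands highest at 2.95 and Hoxb13 lowest at -2.24, and the diamonds of Hoxa3 and Hoxb3 fall to zero or just below.

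RefSeq promoters (250 bases before to 50 after the start, build GRCm38.p6) could be matched for 22 of the 38 genes. The 4 shown here belong to genes with a called change of at least 2-fold and the same call in the length and GC fit, 1 rising and 1 falling in the Hoxa cluster, 1 rising in Hoxb and 1 falling in Hoxd. Each is written 5′ to 3′ on the gene's own strand, and capitals mark motif matches on either strand.
Hoxa6: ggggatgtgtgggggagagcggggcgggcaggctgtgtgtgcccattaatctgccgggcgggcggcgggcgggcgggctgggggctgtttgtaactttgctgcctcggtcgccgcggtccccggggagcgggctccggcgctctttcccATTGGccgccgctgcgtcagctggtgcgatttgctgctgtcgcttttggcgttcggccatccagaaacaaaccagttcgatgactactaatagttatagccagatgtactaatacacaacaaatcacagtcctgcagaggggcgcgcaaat
Hoxa9: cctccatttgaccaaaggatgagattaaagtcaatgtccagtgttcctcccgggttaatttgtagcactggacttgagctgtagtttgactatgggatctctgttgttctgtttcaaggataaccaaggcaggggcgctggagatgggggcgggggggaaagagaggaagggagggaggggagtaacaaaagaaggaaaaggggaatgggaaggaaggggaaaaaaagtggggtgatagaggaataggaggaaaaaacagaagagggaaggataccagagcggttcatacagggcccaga
Hoxb4: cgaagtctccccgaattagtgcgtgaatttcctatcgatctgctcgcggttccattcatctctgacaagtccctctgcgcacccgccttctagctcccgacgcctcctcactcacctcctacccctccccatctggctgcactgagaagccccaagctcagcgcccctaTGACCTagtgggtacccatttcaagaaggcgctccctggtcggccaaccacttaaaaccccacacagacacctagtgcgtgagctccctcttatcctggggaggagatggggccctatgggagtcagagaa
Hoxd8: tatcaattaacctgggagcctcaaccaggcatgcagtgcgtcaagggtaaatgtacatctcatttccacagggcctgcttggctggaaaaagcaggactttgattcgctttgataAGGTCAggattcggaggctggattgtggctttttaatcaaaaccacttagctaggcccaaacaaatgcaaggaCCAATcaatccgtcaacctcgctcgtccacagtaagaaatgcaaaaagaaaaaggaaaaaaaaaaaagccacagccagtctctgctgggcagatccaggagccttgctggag
The windows lie at chr6:52208623-52208922 (minus strand) for Hoxa6, chr6:52227321-52227620 (minus strand) for Hoxa9, chr11:96318017-96318316 (plus strand) for Hoxb4 and chr2:74704365-74704664 (plus strand) for Hoxd8. They were searched on both strands for the core TATA box (letters TATAAA), for CCAAT (the box bound by NFY), TGATTNAT (a joint PBX and HOX site), TTTATNG (bound by CDX and posterior HOX proteins) and AGGTCA (the half-site of retinoic acid receptors). A TTTATNG match can overlap a TATAAA match read on the other strand. Hoxa6 held 1 CCAAT box, read on the other strand as ATTGG. Hoxb4 held 1 AGGTCA, read as TGACCT, Hoxd8 held 1 CCAAT box and 1 AGGTCA, and Hoxa9 held no match to these letters. The counted Hoxa9 gene ends at 52203169 in mm39 and the counted Hoxa6 gene at 52185652. Judged by the Hoxa6 window, the Hoxa9 window lies upstream of the counted Hoxa9 gene, so it may not be the promoter of what was counted.

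Most of the 22 matched HOX promoters belong to Hoxa and Hoxd genes. From Hoxb only Hoxb1, Hoxb4 and Hoxb8 were matched, and from Hoxc only Hoxc4, so the shares below say little of these clusters. Over the 22 matched HOX promoters, CCAAT was found in 14 (63.6%) and in 37.9% of all 27025 RefSeq promoters of the table. AGGTCA was in 7 of 22 (31.8%) and in 16.04% of all promoters. The other 3 motifs had few matches in HOX promoters. TATAAA was in 3 of 22 (13.6%) and in 14.2% of all promoters. TTTATNG was in 2 (9.09%) and in 11.3%, and TGATTNAT in 1 (4.55%) and in 3.36%. These matches are too few to tell whether the shares differ. HOX promoters had a median GC content of 56.8%, against 52.7% over all promoters. AGGTCA stood in 3 of the 8 matched promoters of genes called higher and in 3 of the 8 of genes called lower, so no split by direction was seen with these few genes. CCAAT stood in 5 of 8 and 4 of 8.

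In the Hoxa cluster (mm39 chromosome 6, 52139389 to 52237865, minus strand) the genes of the middle rose and those of the 5′ end fell. Of its 10 tested genes edgeR called 4 higher and 4 lower (40.8% and 40.5% of all tested genes). The length and GC fit called 3 higher and 3 lower. Hoxa6, a gene of the thoracic region, was at 6.12, 5.54 and 6.13 CPM in the K68R libraries and at 0.728, 0.768 and 0.805 CPM in the WT libraries. All K68R values lay far above all WT values, a 7.72-fold difference (log2 2.95, SE 0.170, edgeR adjusted p = 1.98e-25), and the length and GC fit gave 5.89-fold. On a per-length scale (RPKM), Hoxa6 moved from rank 34 of the 38 genes in WT to rank 15 in K68R. Its neighbour Hoxa5, which patterns the neck and lung, was at 18.7, 19.9 and 19.2 CPM in K68R against 11.8, 10.6 and 11.7 CPM in WT. It was 1.69-fold higher (edgeR adjusted p = 2.3e-16), with a log2 difference of 0.75, and of 1.18 in the length and GC fit. Hoxa7 was 1.20-fold higher (edgeR adjusted p = 0.00499), a call that ended in the length and GC fit, where the log2 difference was 0.02.

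The 4 genes at the 5′ end, Hoxa9 to Hoxa13, were all called lower in K68R by edgeR, where 40.5% of all tested genes were. The length and GC fit called 3 of the 4 lower. Hoxa9, a gene of posterior thoracic levels also known from leukaemia, was at 2.52, 2.05 and 2.46 CPM in K68R against 5.60, 5.05 and 5.67 CPM in WT. The groups did not overlap, and Hoxa9 was 2.33-fold lower (log2 -1.22, SE 0.137, edgeR adjusted p = 1.51e-12), with a log2 difference of -0.92 in the length and GC fit. Hoxa10, a lumbar and uterine patterning gene, was at 5.08, 5.19 and 6.19 CPM in K68R against 9.87, 10.1 and 9.82 CPM in WT, 1.804-fold lower, and its log2 difference was -0.85 without and -1.01 with the length and GC terms. Hoxa11, which shapes the forearm, was 1.41-fold lower (log2 -0.50, and -0.44 in the length and GC fit). Hoxa13, the gene of hand and foot, was at 0.620 to 0.713 CPM in K68R against 0.805 to 1.41 CPM in WT. Its log2 difference of -0.71 (edgeR adjusted p = 0.0168) became -0.22 in the length and GC fit and was not called there, nor without WT library 1, where it was -0.48.

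At the 3′ end, Hoxa2, the gene of the second pharyngeal arch, was at 4.01 to 4.11 CPM in K68R against 3.54 to 4.03 CPM in WT and was not called (log2 0.12). The length and GC fit called it higher, at a log2 difference of 0.53. Hoxa4 was not called in either fit. Hoxa3, which patterns the third arch and the thymus, was 2.77-fold higher (7.94, 8.40 and 7.49 CPM against 2.79, 2.85 and 2.98 CPM), but its log2 difference turned from 1.47 to -0.06 in the length and GC fit, where it was not called. Its annotated exons sum to 10868 bases, and its gene body spans Hoxa4, Hoxa5 and Hoxa6. In this cluster Hoxa3, Hoxa7, Hoxa9, Hoxa10 and Hoxa11 share 23.4% to 66.5% of their exonic bases with other annotated genes. The counts took no account of strand and left out read pairs on more than 1 gene, so pairs in such shared stretches can be lost. For Hoxa7 and Hoxa9 the overlapping gene lies on the same strand.

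The Hoxb cluster (mm39 chromosome 11, 96085142 to 96259082, plus strand) rose from Hoxb3 to Hoxb9 (from Hoxb4 to Hoxb9 in the length and GC fit), with Hoxb7 in the middle going the other way. All 9 tested genes were called by edgeR (81.4% of all tested genes were), 6 higher and 3 lower, with a median log2 change of 0.91 (0.66 in the length and GC fit). Hoxb9, a thoracic gene, was the most abundant HOX gene per length in both genotypes, at 57.4, 56.5 and 56.0 CPM in K68R against 30.1, 31.0 and 30.01 CPM in WT. It was 1.86-fold higher (log2 0.90, SE 0.0405, edgeR adjusted p = 2.45e-31), and the length and GC fit gave 0.87. Hoxb4, known for its action in blood stem cells and the neck vertebrae, was at 15.5, 17.5 and 16.6 CPM in K68R against 6.23, 5.44 and 6.21 CPM in WT. It was 2.77-fold higher (log2 1.47, SE 0.0815, edgeR adjusted p = 2.12e-26), and its log2 difference was 1.23 in the length and GC fit.

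Hoxb5 and Hoxb6, genes of the neck and upper thorax, were 1.92-fold and 2.05-fold higher. Hoxb6 was at 11.97, 13.1 and 14.3 CPM in K68R against 5.80, 7.16 and 6.50 CPM in WT. Hoxb8 was 1.88-fold higher, at 12.3, 11.5 and 12.1 CPM against 6.99, 5.44 and 6.53 CPM. For all 3 of these genes the groups did not overlap, and the length and GC fit called them higher too, with log2 differences of 1.17 for Hoxb5, 1.24 for Hoxb6 and 0.66 for Hoxb8. Hoxb3 was at 18.9, 19.0 and 19.7 CPM in K68R against 7.03, 7.55 and 7.37 CPM in WT, 2.63-fold higher. Its direction turned in the length and GC fit, where it was called lower (log2 -0.21, edgeR adjusted p = 0.00995), and its annotated exons sum to 9627 bases.

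Hoxb7, between Hoxb6 and Hoxb8, was lower in K68R. It was at 7.32, 6.22 and 7.68 CPM in K68R against 12.2, 12.9 and 10.1 CPM in WT, with no overlap, 1.66-fold lower (log2 -0.73, SE 0.0909, edgeR adjusted p = 7.8e-11). The length and GC fit gave -0.46 and also called it. Hoxb13, the gene at the far 5′ end that acts in the tail bud and prostate, was at 0.0972 to 0.192 CPM in K68R against 0.576 to 0.849 CPM in WT. It was 4.71-fold lower (log2 -2.24, SE 0.428, edgeR adjusted p = 3.31e-06, and -1.90 in the length and GC fit), on 13 read pairs in all K68R libraries and 76 in all WT libraries. Hoxb2, a hindbrain gene, was at 9.84 to 10.9 CPM in K68R against 10.2 to 12.95 CPM in WT, so the groups overlapped. It was called lower with an edgeR adjusted p of 0.028 (log2 -0.19), and the log2 difference was -0.00 in the length and GC fit. Without K68R library 2 or 3, or WT library 1 or 2, the call on Hoxb2 was lost, at log2 differences between -0.19 and -0.14.

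In the Hoxc cluster (mm39 chromosome 15, 102829566 to 102945281, plus strand) 5 of 9 tested genes were lower in K68R and 1 was higher (40.5% and 40.8% of all tested genes). The median log2 change was -0.27 (-0.19 in the length and GC fit). Hoxc8 to Hoxc11 fell, as did Hoxc5. Hoxc10, a lumbar and hindlimb gene, was at 12.4, 12.02 and 12.1 CPM in K68R against 21.0, 20.5 and 19.8 CPM in WT. It was 1.68-fold lower (log2 -0.75, SE 0.0652, edgeR adjusted p = 5.98e-17), and -0.39 in the length and GC fit. Hoxc11, also a hindlimb gene, was at 0.736, 1.15 and 0.843 CPM in K68R against 2.06, 2.14 and 2.15 CPM in WT, 2.30-fold lower (log2 -1.20, SE 0.218, edgeR adjusted p = 1.17e-06, and -0.72 in the length and GC fit). Hoxc9, a thoracic gene, was at 5.96 to 6.86 CPM against 9.58 to 11.3 CPM and was lower in both fits, at log2 differences of -0.66 and -0.93. None of these 3 genes shares exonic bases with another gene, and in each the groups did not overlap.

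Hoxc8, which patterns the thorax and forelimb motor neurons, was at 11.6, 12.02 and 12.96 CPM in K68R against 18.7, 19.2 and 19.9 CPM in WT. Its 1.57-fold fall (log2 -0.65, edgeR adjusted p = 4.94e-14) shrank to a log2 difference of -0.14 in the length and GC fit and was not called there (edgeR adjusted p = 0.067). Hoxc5 was lower at a log2 difference of -0.27, and that call was lost in the same way, at -0.16. Hoxc6, an abundant gene of the forelimb level, was at 24.1 to 24.8 CPM in K68R against 23.7 to 28.0 CPM in WT and was not called (log2 -0.07). Without WT library 2 it was called lower, at -0.14, as it was in the length and GC fit, at -0.19. Hoxc4 was at 6.47 to 7.50 CPM and 6.36 to 7.64 CPM and was not called (log2 -0.01), while the length and GC fit called it lower, at -0.79.

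At the 5′ end of the cluster the order changed. Hoxc13, a gene of hair follicles and nails, was higher in K68R, at 4.73, 3.65 and 4.12 CPM against 2.64, 3.01 and 2.83 CPM in WT. The groups did not overlap, and the difference was 1.47-fold (log2 0.56, SE 0.144, edgeR adjusted p = 0.00038, and 0.49 in the length and GC fit). Hoxc12 was at 0.852 to 1.28 CPM and 0.703 to 0.895 CPM, which overlapped, and was not called (log2 0.53). It was called higher without K68R library 1 (0.67) and without WT library 3 (0.64).

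In the Hoxd cluster (mm39 chromosome 2, 74498569 to 74595486, plus strand) 8 genes were tested, of which 2 were called higher and 4 lower (40.8% and 40.5% of all tested genes). Hoxd8, in the middle of the cluster, was at 4.61, 6.35 and 4.96 CPM in K68R against 11.4, 10.8 and 11.4 CPM in WT. It was 2.11-fold lower (log2 -1.08, SE 0.0954, edgeR adjusted p = 1.76e-16), with no overlap, and -1.28 in the length and GC fit. Hoxd4, a hindbrain and neck gene, was at 2.94 to 3.34 CPM against 3.94 to 4.85 CPM and was lower in both fits (log2 -0.53 and -0.59). Hoxd9 was at 1.70 to 1.94 CPM against 2.27 to 2.72 CPM. Its edgeR log2 difference was -0.41 (adjusted p = 0.027), and -1.47 in the length and GC fit. The call on Hoxd9 was lost without K68R library 2 (-0.35) and without WT library 2 (-0.37). Hoxd10 was lower at -0.43 but not in the length and GC fit (-0.04).

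Hoxd3 was higher, at 3.72, 4.29 and 4.50 CPM in K68R against 2.40, 2.62 and 2.60 CPM in WT (1.65-fold, edgeR adjusted p = 7.97e-06). In the length and GC fit its log2 difference of 0.72 became -0.01. Hoxd11, Hoxd12 and Hoxd13, at the 5′ end, were not called lower in either fit. Of the Hoxa genes with the same numbers, Hoxa11 was called lower in both fits, and Hoxa13 was not called in the length and GC fit. Hoxd13, a gene of digits and genital tubercle, was at 8.10, 6.70 and 7.55 CPM in K68R against 8.76, 7.26 and 7.97 CPM in WT. These values overlapped and were not called (log2 -0.11), and the length and GC fit called Hoxd13 higher, at 0.23. Hoxd11 was at 3.80 to 4.17 CPM against 2.97 to 3.52 CPM, with no overlap, but was not called (log2 0.24, edgeR adjusted p = 0.0961), and the length and GC fit called it higher, at 0.55. Hoxd12, under 1 CPM in every library, was called higher at a log2 difference of 0.78 (edgeR adjusted p = 0.0295, and 0.71 in the length and GC fit). Its call was lost without K68R library 2 (0.73) or 3 (0.72) and without WT library 2 (0.79) or 3 (0.57).

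**Figure D2:**
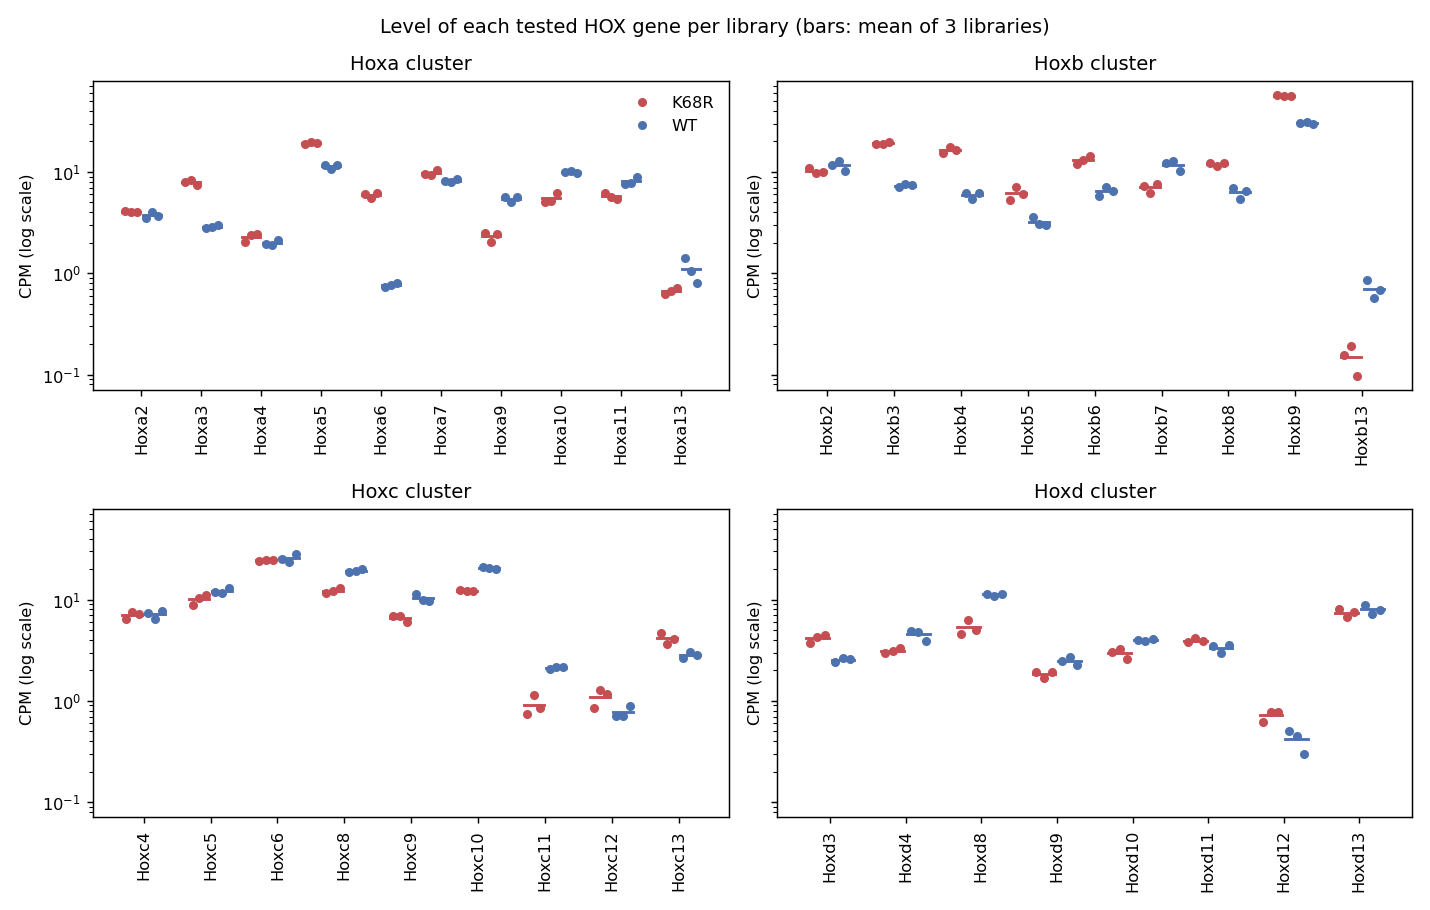
Level of each tested HOX gene in each library, in CPM on a log axis, by cluster and in 3′ to 5′ order, with K68R in red and WT in blue. Points are libraries and bars the mean of 3. Hoxb9 is the top gene of both genotypes at 56.0 to 57.4 and 30.01 to 31.0 CPM, and the wide gap at Hoxa6 separates 5.54 to 6.13 CPM from 0.728 to 0.805 CPM.

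To compare levels between genes, counts were divided by exonic length as well as library size (RPKM). Long annotated exon models lower this value for Hoxa3 and Hoxb3. The sum over the 38 genes was 123 ± 1.97 RPKM in K68R and 113 ± 0.994 RPKM in WT (SD, n = 3), 1.09-fold apart, and these sums are not corrected for length and GC effects on the fold changes. Hoxb genes summed to 54.2 ± 0.680 RPKM in K68R and 34.9 ± 1.52 in WT, 1.55-fold more. Hoxc genes summed to 30.8 ± 0.812 and 40.99 ± 1.05 RPKM, 1.33-fold less, and Hoxd genes to 11.1 ± 0.267 and 14.3 ± 0.470 RPKM, 1.29-fold less. Hoxa genes summed to 27.2 ± 0.413 and 23.2 ± 0.666 RPKM, 1.17-fold more (a log2 ratio of 0.23, and of 0.70 over the Hoxa members that share no exonic bases). The libraries of the genotypes did not overlap for any of the 4 clusters. No test was made on these sums.

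As a share of the summed level, Hoxb rose from 30.8% ± 1.38 in WT to 44.0% ± 0.204 in K68R (SD, n = 3), and Hoxc went from 36.1% ± 0.894 to 24.96% ± 0.291. The leading cluster was thus Hoxc in WT and Hoxb in K68R. The Hoxd share was 12.6% ± 0.305 in WT and 8.98% ± 0.152 in K68R, and the Hoxa share 20.5% ± 0.542 and 22.1% ± 0.215. In WT the highest genes per length after Hoxb9 (11.2 ± 0.198 RPKM) were Hoxc10 (10.7 ± 0.309 RPKM), Hoxc6 (8.30 ± 0.706 RPKM) and Hoxc8 (8.05 ± 0.246 RPKM), the last pair within their spread. In K68R the genes after Hoxb9 (21.0 ± 0.258 RPKM) were Hoxa5 (11.3 ± 0.349 RPKM), Hoxb6 (8.15 ± 0.730 RPKM) and Hoxc6 (7.93 ± 0.104 RPKM), again the last pair within their spread.

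**Figure D3:**
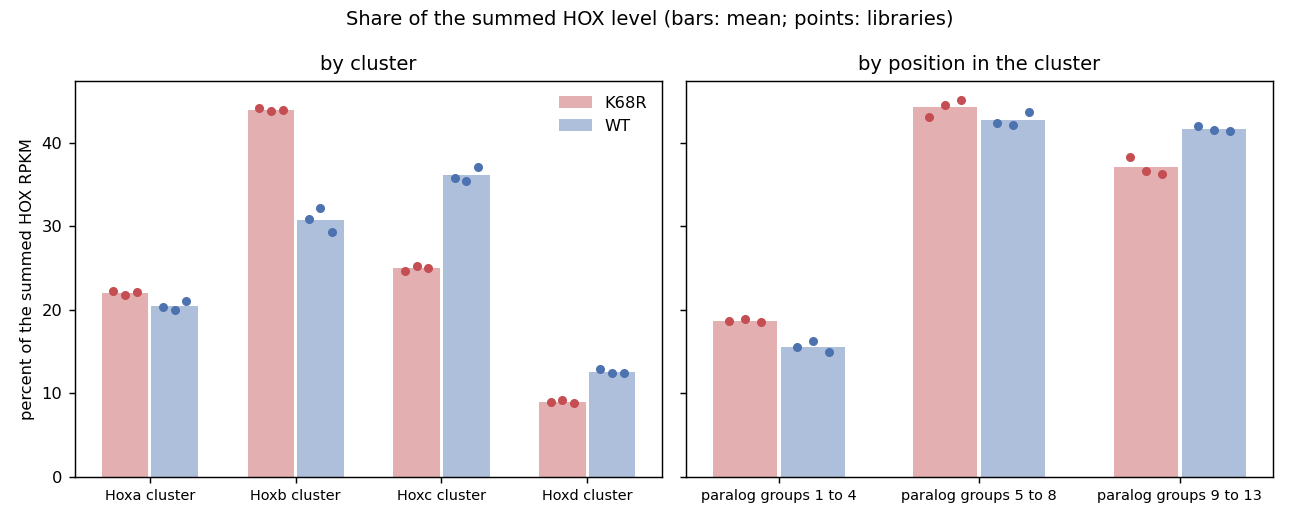
Share of the summed HOX RPKM held by each cluster (left) and by 3 bands of paralog groups (right), in percent, for K68R (red) and WT (blue), with bars for means and points for libraries. The Hoxb bar is 44.0% in K68R and 30.8% in WT, the Hoxc bar 24.96% and 36.1%, and the band of groups 9 to 13 is 37.1% and 41.7%.

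Position along the clusters gave a second axis. Paralog groups 9 to 13, the posterior genes, held 38.3%, 36.7% and 36.3% of the summed HOX RPKM in the K68R libraries and 42.1%, 41.6% and 41.4% in the WT libraries. All K68R values were below all WT values, a difference of -4.64 percentage points. Hoxb9, the most abundant posterior gene, was itself higher in K68R, as were Hoxc13 and Hoxd12. Among the members other than Hoxb9, an alternative added after the values were seen, the posterior share was 24.2% ± 0.845 in K68R and 35.3% ± 0.464 in WT (SD, n = 3), a difference of -11.1 points. Groups 1 to 4, the anterior genes, held 18.7% ± 0.143 in K68R and 15.6% ± 0.701 in WT. Groups 5 to 8 held 44.2% ± 1.05 and 42.7% ± 0.835, which overlapped, and in CPM the direction turned, to 40.04% ± 0.915 in K68R and 42.4% ± 0.864 in WT with no overlap. Of the 16 posterior genes, edgeR called 10 lower and 3 higher in K68R, with a median log2 change of -0.47, and the length and GC fit called 8 lower and 5 higher (median -0.31). Over all tested genes edgeR called 40.8% higher and 40.5% lower. Of the 11 genes of groups 5 to 8 edgeR called 6 higher and 4 lower, and the length and GC fit 5 higher and 3 lower. Of the 9 tested genes of groups 1 to 4 edgeR called 4 higher and 2 lower, and the length and GC fit 2 higher and 3 lower, so the balance of the anterior genes turned.

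The posterior share differed most within Hoxa. Its genes of groups 5 to 8 summed to 16.8 ± 0.280 RPKM in K68R and 9.39 ± 0.460 in WT, 1.78-fold more, while its genes of groups 9 to 13 summed to 5.93 ± 0.245 and 10.2 ± 0.265 RPKM, 1.72-fold less. The posterior genes thus made up 21.8% ± 0.825 of the Hoxa level in K68R and 43.8% ± 0.121 in WT. Hoxa9, Hoxa10 and Hoxa11 share 28.7% to 66.5% of their exonic bases with other annotated genes, so their RPKM may be too low. Within Hoxc the posterior share was 40.9% ± 1.37 in K68R and 45.6% ± 1.86 in WT. Within Hoxd it went the other way, at 54.9% ± 3.37 and 46.6% ± 0.914, and within Hoxb too, at 38.9% ± 0.997 and 33.7% ± 1.09, where Hoxb9 made up nearly all of it.

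Paralogs of the same number often did not move together. Among all tested genes edgeR called 40.8% higher and 40.5% lower, and the counts by group here only describe the list. In group 10 all 3 genes (Hoxa10, Hoxc10 and Hoxd10) were lower in K68R, and the summed level was 9.25 ± 0.0647 RPKM against 15.4 ± 0.311 RPKM in WT, 1.67-fold less. In the length and GC fit, 2 of the 3 were called lower. In group 3 all 3 genes were higher, and the summed level was 4.16 ± 0.162 against 1.90 ± 0.0738 RPKM. None of the 3 was called higher in the length and GC fit, where the group's median log2 change went from 1.40 to -0.06. Group 9 was split: Hoxb9 was higher while Hoxa9, Hoxc9 and Hoxd9 were lower, in both fits. Groups 5 and 6 summed higher in K68R (18.2 ± 1.15 against 12.8 ± 0.638 RPKM, and 18.7 ± 0.777 against 12.7 ± 0.713 RPKM), carried by Hoxa5, Hoxb5, Hoxa6 and Hoxb6. Groups 7, 8 and 11 summed lower, with no overlap of libraries, and groups 2 and 13 overlapped.

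**Figure D4:**
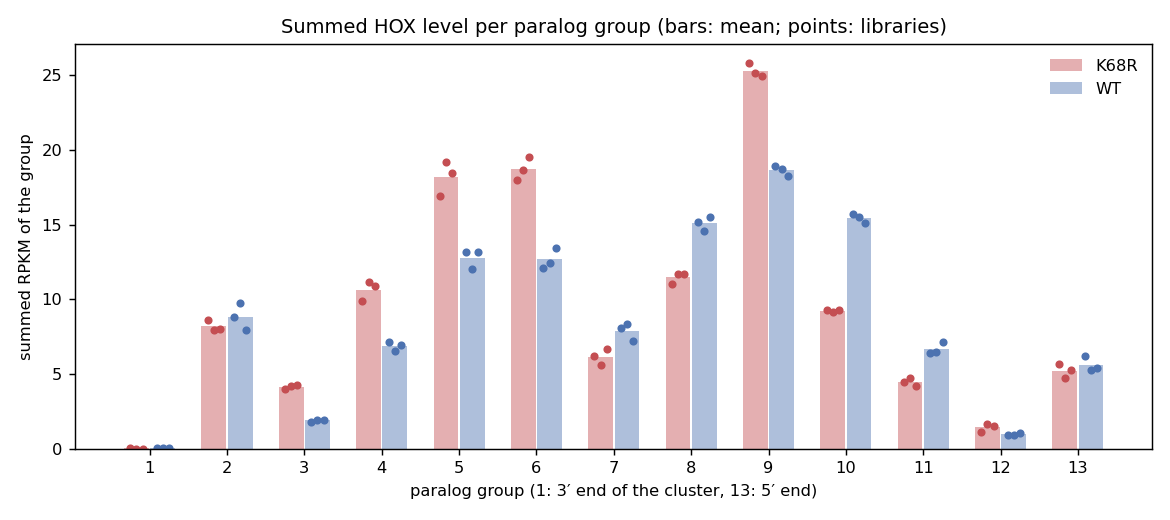
Summed RPKM of each paralog group from 1 (3′ end) to 13 (5′ end) for K68R (red) and WT (blue), with bars for means and points for libraries. All K68R points lie above the WT points in groups 3 to 6, 9 and 12 and below them in groups 7, 8, 10 and 11, with the widest gap downwards at group 10 (9.25 against 15.4 RPKM).

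Neighbouring HOX genes share enhancers and chromatin domains. Of 34 neighbouring pairs on the list, 21 had both genes called, of which 15 pairs moved in the same direction and 6 in opposite directions. The share of same-direction pairs among other neighbouring genes was not computed, so these counts only describe the list. The 6 were Hoxa7 with Hoxa9, Hoxb2 with Hoxb3, Hoxb6 with Hoxb7, Hoxb7 with Hoxb8, Hoxb9 with Hoxb13, and Hoxd3 with Hoxd4. The pairs of Hoxb7 with both of its neighbours and Hoxb9 with Hoxb13 were also opposite in the length and GC fit, which set Hoxb3 against Hoxb4 as well. Hoxb7 and Hoxb8 lie 279 bases apart on the same strand, while Hoxb9 and Hoxb13 are 74719 bases apart. The ratio of Hoxb7 to Hoxb8 counts, which does not depend on library size, was 0.594, 0.539 and 0.634 in K68R and 1.75, 2.37 and 1.55 in WT, 3.16-fold apart. The ratio of Hoxa6 to Hoxa7 counts was 0.640, 0.599 and 0.587 in K68R and 0.0904, 0.0976 and 0.0941 in WT, 6.47-fold apart. Both ratios were chosen after the values were seen and are given as a description, with no test.

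Non-coding and antisense transcripts of the clusters were scarce. The table held 18, of which 8 were tested, with 3 called higher and 1 lower (40.8% and 40.5% of all tested genes) and 4 not called. Their median log2 change was 0.46. With length and GC removed, 6 were called higher and 1 lower, with a median of 1.06. Hoxa11os, the antisense transcript of Hoxa11, was at 2.65 ± 0.309 CPM in K68R against 6.28 ± 0.259 CPM in WT (SD, n = 3), 2.36-fold lower, in the same direction as Hoxa11, with which it shares exonic bases (41.9% of its own). Hoxaas2, antisense near Hoxa3, was 2.14-fold higher and Hotairm1, a transcript at the 3′ end of Hoxa, 1.32-fold higher (3.11-fold and 2.07-fold in the length and GC fit). Hotair, transcribed within Hoxc, was at 0.320 and 0.547 CPM and was not called. Hoxblinc, a transcript of the Hoxb cluster picked after its values were seen, was at 1.34 ± 0.251 CPM in K68R against 0.252 ± 0.0413 CPM in WT, 5.25-fold higher (edgeR adjusted p = 7.2e-10). It had no GC value, so the length and GC fit did not hold it.

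Of 14 tested genes flanking the clusters, 4 were called higher and 10 lower (40.8% and 40.5% of all tested genes), with a median log2 change of -0.32 (-0.12 in the length and GC fit, with 6 higher and 7 lower). Hnrnpa1, an RNA-binding protein gene beside Hoxc, was 2.00-fold lower, Calcoco1, on the other side of Hoxc, 2.81-fold higher, and Skap1, an adaptor gene beside Hoxb, 2.40-fold higher. In the length and GC fit Hnrnpa1 was 1.37-fold lower, Calcoco1 1.26-fold higher and Skap1 3.51-fold higher. Evx1 and Evx2, the homeobox genes at the 5′ ends of Hoxa and Hoxd, were at means of 0.198 CPM or less in both genotypes.

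HOX proteins bind DNA with TALE cofactors, the PBX, MEIS and PKNOX homeodomain proteins. All 10 tested TALE genes were called, where 81.4% of all tested genes were, 8 higher and 2 lower, with a median log2 change of 0.25, while the length and GC fit called 5 higher and 3 lower (median 0.05). Pbx4 was at 2.04 ± 0.276 CPM in K68R against 0.708 ± 0.103 CPM in WT (SD, n = 3), 2.86-fold higher, with a log2 difference of 1.56 in the length and GC fit. Meis1, a marker of proximal limb and a partner of anterior and middle HOX proteins, was at 23.8 ± 0.691 and 36.3 ± 0.785 CPM, 1.53-fold lower in edgeR, and its log2 difference was -0.27 in the length and GC fit. Meis3 was 1.99-fold higher, which the length and GC fit did not call (-0.05).

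Among regulators that act before the HOX genes, Gdf11, the signal that opens posterior HOX genes at the trunk to tail transition, was at 36.5 ± 0.439 CPM in K68R against 5.90 ± 0.280 CPM in WT, 6.20-fold higher (3.69-fold in the length and GC fit). Gmnn, which encodes geminin, was 2.60-fold lower (2.27-fold in the length and GC fit), and Egr2, a hindbrain activator of Hoxa2 and Hoxb2, 4.03-fold lower (7.62-fold in the length and GC fit). Egr2 shares 33.2% of its exonic bases with Ado, on the other strand. Of this list of 7 regulators 4 were tested, 2 higher and 2 lower in both fits, where edgeR called 40.8% and 40.5% of all tested genes. Cdx2 and Cdx4, the caudal factors that switch on trunk HOX genes in the early embryo, had 0 counts in all libraries, which allows up to 0.0728 to 0.116 CPM in each library, and Cdx1 was at a mean of 0.0216 CPM in K68R and 0.0261 CPM in WT.

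Of 18 tested retinoic acid pathway genes, edgeR called 12 higher and 4 lower (40.8% and 40.5% of all tested genes; median log2 change 0.57), and the length and GC fit 7 higher and 9 lower (median -0.32), so the balance depended on that correction. Crabp1, a cytoplasmic retinoic acid binding protein, was at 150 ± 2.09 CPM in K68R against 709 ± 12.4 CPM in WT, 4.72-fold lower, and -1.75 on the log2 scale in the length and GC fit. Aldh1a3, an enzyme that makes retinoic acid, was 3.97-fold lower (-1.97 in that fit).

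Of 24 tested Polycomb genes, edgeR called 14 higher and 9 lower (40.8% and 40.5% of all tested genes), with a median log2 change of 0.38, and the length and GC fit 9 higher and 12 lower (median -0.10). Phf1 and Phc1, subunits of the 2 Polycomb complexes, were 3.44-fold and 3.36-fold higher and were called higher in both fits. Phc2 was 3.71-fold higher but lower in the length and GC fit (log2 -0.62). Of 22 tested Trithorax, demethylase and architecture genes, 11 were higher and 10 lower in both fits, so 21 were called, where 81.4% of all tested genes were. Kdm6b, which removes the Polycomb mark from histone H3, was 26.3-fold higher, and Kmt2d and Kmt2b, histone methyltransferases of active genes, 24.3-fold and 15.1-fold higher. The length and GC fit left log2 differences of 1.33 for Kdm6b, 0.52 for Kmt2d and 0.93 for Kmt2b, a fraction of the first values.

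Other genes of positional identity were read beside the HOX code. The mesenchyme of the face and front of the head carries no HOX expression and is marked by other homeobox genes. Of 12 such factors 10 were tested, and all 10 were called higher in K68R at 2-fold or more (22.1% of all tested genes), with a median log2 change of 2.49. The length and GC fit called 9 of them higher, with a median of 2.25. Lhx6, of the jaw mesenchyme, was at 9.46 ± 0.427 CPM in K68R against 0.424 ± 0.131 CPM in WT (SD, n = 3), 22.5-fold higher. Six2 was at 24.1 ± 1.61 and 1.65 ± 0.0839 CPM, 14.6-fold higher, and Dlx5, which sets the lower jaw, at 5.06 ± 0.0821 and 0.678 ± 0.279 CPM, 7.68-fold higher. Lhx6 was 10.03-fold, Six2 6.52-fold and Dlx5 8.98-fold higher in the length and GC fit. Otx1 and Otx2, of the forebrain and front of the head, were too low to test, at means of 0.151 CPM or less in both genotypes.

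Limb genes did not move as a block. Of 16 tested, 11 were called higher and 2 lower (40.8% and 40.5% of all tested genes), with a median log2 change of 0.58, and the length and GC fit called 9 higher and 4 lower (median 0.20). Pitx1, which gives hindlimb and lower jaw identity, was at 20.6 ± 1.94 CPM in K68R against 1.38 ± 0.0192 CPM in WT, 14.8-fold higher, and Lmx1b, the dorsal limb and head mesenchyme factor, at 6.91 ± 0.771 and 0.287 ± 0.0890 CPM, 24.0-fold higher. Wnt7a, the dorsal ectoderm signal, was 4.18-fold higher. All 3 were called higher in the length and GC fit, at log2 differences of 2.24, 2.68 and 1.51. Of the genes that separate forelimb from hindlimb, looked up after the values were seen, Tbx5 (forelimb) was at 4.68 and 4.75 CPM and not called, and Tbx4 (hindlimb) at 5.86 and 4.17 CPM, called higher in edgeR but not in the length and GC fit. The muscle, cartilage, endothelial (mostly Kdr) and epithelial sums given above differed in the same libraries, and their part in these positional genes was not tested.

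**Figure D5:**
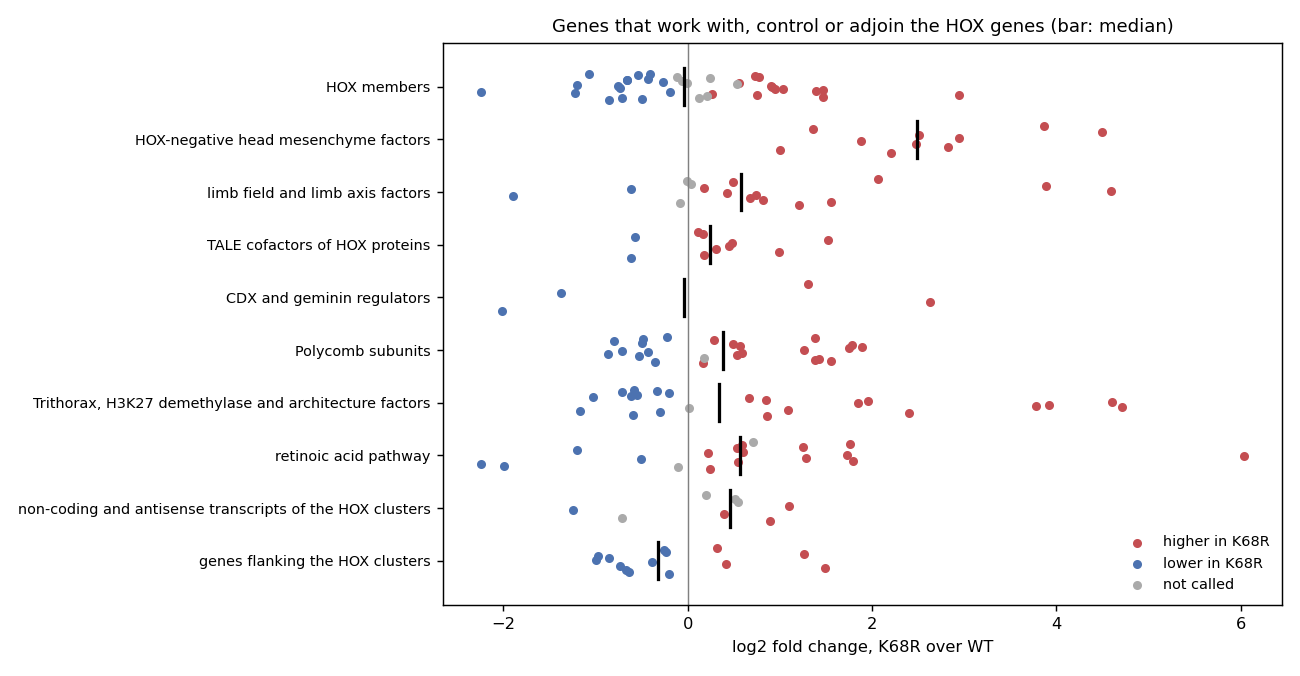
Log2 fold change (K68R over WT) of every tested gene in the HOX list and in 9 lists of genes that work with, control or adjoin HOX genes. Each point is a gene, red where called higher in K68R, blue where called lower and grey where not called, and black bars are medians. The HOX median lies at -0.04 with genes on both sides, and the head mesenchyme factors lie on the right with a median of 2.49.

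The cell mixture behind these values was read from marker lists. Over all tested genes, edgeR called 40.8% higher and 40.5% lower. All 12 fibroblast markers were above 1 CPM and summed to 18388 to 18420 CPM in K68R and 8732 to 8842 CPM in WT, with 6 called higher and 5 lower (6 and 6 in the length and GC fit). Fn1 was 18.5-fold and Col1a1 14.8-fold higher in edgeR, and Pdgfra 5.56-fold lower. Their folds were 7.46, 3.05 and 7.31 in the length and GC fit. All 9 tested skeletal muscle markers and all 6 tested cartilage markers were higher in K68R, among them Myh3 (49.9-fold, and 24.2-fold in the length and GC fit) and Col2a1 (227-fold and 35.6-fold). The length and GC fit called 9 and 3 of these higher. Of 7 endothelial markers 6 were tested, 3 of them higher and none lower, led by Kdr (4.46-fold, and 3.20-fold in the length and GC fit). In that fit 2 endothelial markers were called higher and 1 lower, and their median log2 change went from 0.61 to -0.21. All 6 tested epithelial markers were lower in both fits, with Krt5 65.2-fold and Krt14 36.1-fold lower. Of 10 macrophage markers 3 were higher and 4 lower, and 4 and 3 in the length and GC fit (157 to 162 CPM summed in K68R and 170 to 171 CPM in WT). Of 7 tested neural and glial markers 5 were higher and 2 lower, and in the length and GC fit 2 were higher and 2 lower, while their sum was 58.0 to 59.0 CPM in K68R and 37.7 to 40.5 CPM in WT. Hepatic markers stayed at or under 1.52 CPM summed and erythroid markers at or under 0.863 CPM. Xist and genes of the Y chromosome were detected in every library of both genotypes, Xist at 175 ± 2.54 CPM in K68R against 136 ± 2.99 CPM in WT (SD, n = 3), and Kdm5d, Ddx3y and Eif2s3y 1.43-fold to 1.90-fold lower in K68R. The part of embryo sex in the HOX values was not tested.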

How the data were processed

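RNA of 6 mouse embryonic fibroblast libraries was purified with a Triazol reagent and columns (RNA integrity above 4) and turned into stranded poly(A) libraries, per the labels' protocols. The deposited values are unnormalized counts: read pairs on the exons of each gene, beside exonic lengths. Per the submitters' processing notes, reads were processed with HISAT2 2.2.1 and featureCounts 2.0.6 on build mm39, and per the file headers featureCounts ignored strand and left out multi-mapped pairs and pairs on more than 1 gene. Reads of genes that overlap, or of near-identical copies, can therefore be lost or cannot be assigned.

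Counts were tested in R 4.3.3 with edgeR 4.0.16 (filterByExpr, TMM, robust quasi-likelihood F test, genotype only, Benjamini-Hochberg over all 16730 genes, call at 0.05). Within a genotype, the chi-square between libraries was 1.85 to 2.29 per gene, more than counting error gives. The spread between libraries beyond counting error, edgeR's common coefficient of variation, was 2.19%. Each library was counted as a sample, though this spread may be technical. CPM and RPKM used TMM library sizes. In the length and GC fit, a smooth surface of log counts over exonic length and GC content (mgcv 1.9.3) entered edgeR as offsets, for the 15673 tested genes with a GC value (GRCm38 annotation, matched by symbol). Alternatives were DESeq2 1.42.0, limma 3.58.1 (voom), other scalings and filters, a replicate block and leaving out each library. Only the main edgeR fit was tested on simulated data, which held no length or GC effect. The length and GC fit and the alternatives were not tested in this way.

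Named genes were all HOX genes of 1 CPM or more in either genotype and, per list, up to 3 called genes with the largest change at 1 CPM or more, plus list members at or near 0; 1 such gene is not reported here. The members and lists were chosen with earlier results of these data known. Intervals and floors cover counting error only.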

Additional observations from a re-analysis of the deposited data

How the results depend on the processing

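The HOX genes called numbered 12 to 14 higher and 14 to 16 lower when each library was left out in turn (13403 to 13637 genes in all), and DESeq2 called 11 higher and 13 lower (13108 in all). The test against 1.5-fold left 7 HOX genes lower and 6855 genes in all, since it asks for a larger change. Upper quartile scaling moved the median of all genes from -0.01 to -0.12 and gave 11 HOX genes higher and 18 lower. It moved the HOX median log2 change from -0.04 to -0.15. Without the count filter the median was -0.078, and with each library left out it ran from -0.12 to -9.42e-05. With the length and GC terms the direction turned for Hoxa3 (-0.064), Hoxb3 (-0.21), Hoxd3 (-0.011) and Hoxd13 (0.23). Hoxc4, not called, turned to 0.014 under a 1 CPM filter and ran from -0.10 to 0.041 with each library left out. DESeq2 did not call Hoxa7, Hoxa13, Hoxb2, Hoxd9 or Hoxd12. The cause of these changes was not tested.

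In CPM rather than per length, the log2 ratio of summed levels was 0.75 for Hoxb, -0.36 for Hoxc and -0.31 for Hoxd. Without members that share exonic bases it was 0.70 for Hoxa, 0.76 for Hoxb, -0.24 for Hoxd and 0.12 for paralog group 2, which reversed. The difference in the posterior share was -4.64 points, and -5.25 to -4.24 with each library left out. It was -11.1 for members other than Hoxb9 and -3.55 for members with no shared exonic bases.

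Replicate numbers did not pair the libraries: same-numbered libraries had deviations correlated at -0.00947, 0.0135 and 0.0130 over 16730 genes, and not every library correlated best with its own number. With the replicate number as a block, edgeR called 13 HOX genes higher and 16 lower and 13567 genes in all, and no HOX call changed. Genes under 1 CPM (Hoxb13, Hoxd12) rest on few read pairs.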
